A study of Sus scrofa with 12 samples.

Results

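The genes described here are the zinc finger genes of the pig genome that carry a ZNF symbol followed by a number. They were taken by name from the annotated loci of the expression table. The rule found 306 loci with 254 symbols among 30012 loci, of which 20920 are annotated. Where a symbol stood on several loci, as it did for 43 of the 254, the locus with the highest mean level was used. No difference between groups entered the choice, but measured levels did for these symbols. Most libraries behind that mean are from embryonic stem cells, so it favours loci that are high in those cells.

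ZNF symbols are given mostly to proteins with C2H2 zinc fingers, small domains folded around a zinc ion that read DNA bases when they stand in a row. Many of them also carry a KRAB domain, which binds the corepressor TRIM28 and through it brings histone methylation and heterochromatin proteins to the bound site. KRAB zinc finger genes arose largely by tandem duplication, lie in clusters, and are known for silencing transposable elements and for keeping imprints in early embryonic cells. Other members have no KRAB domain and are known as developmental regulators, partners of chromatin complexes, or RNA-binding and ribosome-associated proteins.

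RNA was sequenced from pig fetal fibroblasts (FB) and from 3 lines of pig embryonic stem cells (ESCs), with 3 libraries in each of the 4 groups. The fibroblasts came from a fetus at day 30 post coitum and were used at passage 6. The lines ESC-3 and ESC-7, here ESC3 and ESC7, are parthenogenetic, that is, derived from eggs activated without a sperm genome, and the line ESC-11, here ESC11, comes from an in vitro fertilised (IVF) embryo. All ESCs grew on feeder cells in a medium with 20 ng/mL FGF2, 5 ng/mL ActA, 1.5 µM CH and 2.5 µM IWR-1, with 10 µM Y-27632 around passaging, and were sorted for the surface marker SSEA1 before extraction. With 1 IVF line, embryo origin and line cannot be told apart. The medium also differed between ESCs and fibroblasts, so cell type and culture cannot be told apart either. The labels name no separate cultures, animals or days for the 3 libraries of a group. The p-values therefore reflect the scatter of libraries alone, which may be technical.

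Levels are in FPKM, the fragments on a transcript divided by its length in kilobases and by the mapped fragments of its library. The libraries matched their labels on markers. POU5F1 and SOX2 were at most 0.0743 in any fibroblast library and at least 190 in every ESC library, while the summed level of 9 fibroblast genes was 16200 to 16390 in fibroblasts and 71.4 to 112 in ESCs. The blood marker PTPRC and the liver and endoderm markers ALB and AFP were at most 0.382 in every library. The table has no read counts, so depth is unknown and values carry no counting interval.

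Most ZNF-named genes were expressed at low to moderate levels in both cell types. The median over 254 members of the mean FPKM was 6.32, and 84 members had a mean of at least 10, 11 of at least 50 and 4 of at least 100. The condition for testing, 3 or more libraries with an FPKM of 1 or more, was met by 233 members. The median level of those tested was 6.74, beside 13.5 for all annotated loci tested. The other 21 members reached at most 1.97 in any library (ZNF267), and 3 of them, ZNF391, ZNF426 and ZNF648, were listed at 0 in all libraries. Of the tested members, 18 had every fibroblast library below 1 and 2 had every ESC library below 1, so these passed only through the side where they were high.

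Compared with fibroblasts, the ESC lines held most ZNF-named genes at somewhat higher levels, and few fell. On the log2(FPKM + 1) scale the median difference over the tested members was 0.56, with quartiles of 0.15 and 1.06, and 187 of 233 lay above 0 (80.3%). The same scale gave a median of 0.44 over all 18278 loci tested, with quartiles of -0.39 and 1.11, and 65.0% of them lay above 0. The members' upper quartile was thus near that of all loci, and their lower quartile was higher. In the sum over the 252 members with a mean level under 500, fibroblast libraries held 2001 to 2085 FPKM and ESC libraries 3258 to 3903, with no overlap. The 2 members left out, ZNF677 and ZNF784, are the most abundant, and each overlapped between the cell types. Summed over all annotated loci, fibroblast libraries held 520435 to 557288 FPKM and ESC libraries 554079 to 656538, and these ranges overlapped. In bulk RNA, a change in the share of cells that express a gene and a change in RNA per cell cannot be told apart.

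A member was called when limma's moderated test gave a Benjamini-Hochberg adjusted p under 0.05 over all loci and the log2 difference was at least 1 in size. In the ESC mean 68 members were called higher, which is 29.2% of those tested, against 28.1% of all loci. The share called higher is therefore close to the background and is no result about these genes. Of the 68, 12 had every fibroblast library below 1, so they could be tested only through the ESC side where they are high. ZNF555, ZNF423 and ZNF711, described below, are among them. Only 9 members were called lower (3.86%), against 14.9% of all loci. Among members with a mean FPKM of 1 to 10, 4.17% of 144 were called lower and 20.1% higher, beside 18.0% and 29.5% of annotated loci at that level. Among the 84 members with a mean of at least 10, 2.38% were called lower and 46.4% higher, beside 11.4% and 28.1% of annotated loci. These shares are descriptions of the members that passed the filter and were not tested against the other genes.

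**Figure D1:**
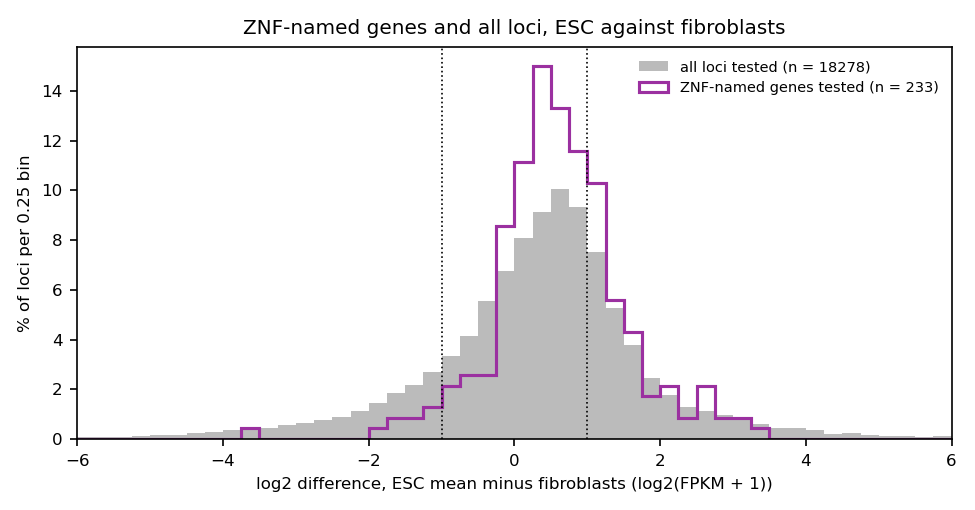
Distribution of the log2 difference, ESC mean minus fibroblasts, on the log2(FPKM + 1) scale (x axis) as a percentage of loci per bin (y axis), for all 18278 loci tested (grey) and the 233 ZNF-named genes tested (purple line). Dotted lines mark a difference of 1 in either direction. The members' left tail is thinner than that of all loci, with 9 called lower, and their right side runs close to it.

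The histogram of log2 differences shows a shift of the whole table as well as of the members, and other scalings move it. The median of all loci fell from 0.44 to 0.10 after quantile normalization, to 0.04 after median-ratio scaling and to 0.30 when libraries were set to the same summed FPKM of annotated loci of at least 1 kb. The members' median stayed above that of all loci by 0.12, 0.18 and 0.13 in the same order, beside 0.11 without scaling. The counts of members higher and lower were 42 and 16, 39 and 14, and 52 and 11, so the share of higher among called members went from 88.3% to 72.4%, 73.6% and 82.5%. For all loci that share went from 65.3% to 50.1%, 48.0% and 59.2%. The percentage of members called lower remained under that of all loci in each case, at 6.87 beside 19.0, 6.01 beside 20.9, and 4.72 beside 16.8. Of the 68 members called higher, 37 kept the call under all 3 scalings, and all 9 called lower did.

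Each ESC line was also set against the fibroblasts, in comparisons that share the fibroblast libraries. ESC3 had 66 members called higher and 10 lower, ESC7 had 72 and 8, and ESC11 had 61 and 11. The background percentages over all loci were 28.6 higher and 15.5 lower for ESC3, 29.2 and 14.3 for ESC7, and 27.4 and 15.5 for ESC11. In each line the share called higher was near the background, and the share called lower, 4.29%, 3.43% and 4.72% in that order, was below it. ESC and fibroblast libraries did not overlap for 76 of the 77 called members, ZNF677 being the one that did. That is 98.7%, near the 96.3% among all loci called.

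The members with known roles in cell identity and development held calls in both directions. Of 21 genes on this list, 18 were in the table and 14 were tested, of which 5 rose, 3 fell and 6 were not called, with a median difference of 0.17. Those are 35.7% and 21.4%, beside 28.1% and 14.9% of all loci, and with 14 genes the list is too short to set it apart from them. ZNF423 is a transcriptional regulator with many zinc fingers that partners SMAD and EBF proteins and is known from adipocyte precursors and neural development. Its FPKM was 0.315, 0.220 and 0.273 in the fibroblast libraries and 8.10 to 10.5, with a median of 9.29, in the 9 ESC libraries. No ESC library came near the fibroblasts. The mean rose from 0.269 ± 0.0475 (SD, n = 3) to 9.36 ± 0.709 (SD, n = 9), a log2 difference of 3.03 ± 0.06 (SE, limma adjusted p = 8.41e-12).

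ZNF521, the closest relative of ZNF423 and an antagonist of EBF1, went the opposite way. It had FPKM values of 28.1, 26.1 and 25.8 in fibroblasts. The ESC3 libraries were at 1.61, 1.76 and 1.74, those of ESC7 at 0.371, 0.466 and 0.558, and those of ESC11 at 1.42, 1.21 and 1.64. All 9 ESC libraries lay far under the fibroblasts, and the ESC7 libraries were lowest. The log2 difference was -3.70 ± 0.06 (SE, limma adjusted p = 1.18e-12), and ZNF521 was the only member called lower whose difference was over 2 in size. The chosen locus (chromosome 6, 102988168 to 102993221) is one of 2 under this symbol, and the other (102734043 to 102765151) fell too, from a mean of 17.2 in fibroblasts to 0.909 (ESC3), 0.193 (ESC7) and 1.12 (ESC11).

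A pair of related repressors of the NET family, ZNF703 and ZNF503, both fell. ZNF703 had FPKM values of 16.2, 17.1 and 16.6 in fibroblasts and 2.51 to 4.22 in ESC libraries, with a median of 4.02. Its difference was -1.94 ± 0.07 (SE, limma adjusted p = 4.67e-10). ZNF503 went from 5.39, 5.97 and 5.42 to a range of 0.860 to 2.25, a difference of -1.41 ± 0.07 (SE, limma adjusted p = 1.28e-08). For both, the highest ESC library was well below the lowest fibroblast library.

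ZNF462, a large nuclear protein linked to chromatin organisation and pluripotency, rose from FPKM values of 2.89, 1.89 and 2.28 in fibroblasts to 14.9 to 32.2 in ESCs, with a median of 21.5. Its log2 difference was 2.74 ± 0.12 (SE, limma adjusted p = 3.96e-09). ZNF711, an X-linked relative of ZFX that recruits the histone demethylase PHF8, was at most 0.552 in every fibroblast library and at 7.39 to 9.90 in ESCs, a log2 difference of 2.75 ± 0.05 (SE, limma adjusted p = 3.49e-12). ZNF217, a corepressor-complex protein known as an oncogene, rose from 10.5, 9.75 and 8.66 to a range of 51.7 to 65.2, a difference of 2.46 ± 0.05 (SE, limma adjusted p = 6.63e-12). ZNF608 rose by 1.47. These genes separated the cell types completely in every library. ZNF281, a pluripotency-associated regulator, differed by 0.19 and was not called, and ZNF398 by -0.19.

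**Figure D2:**
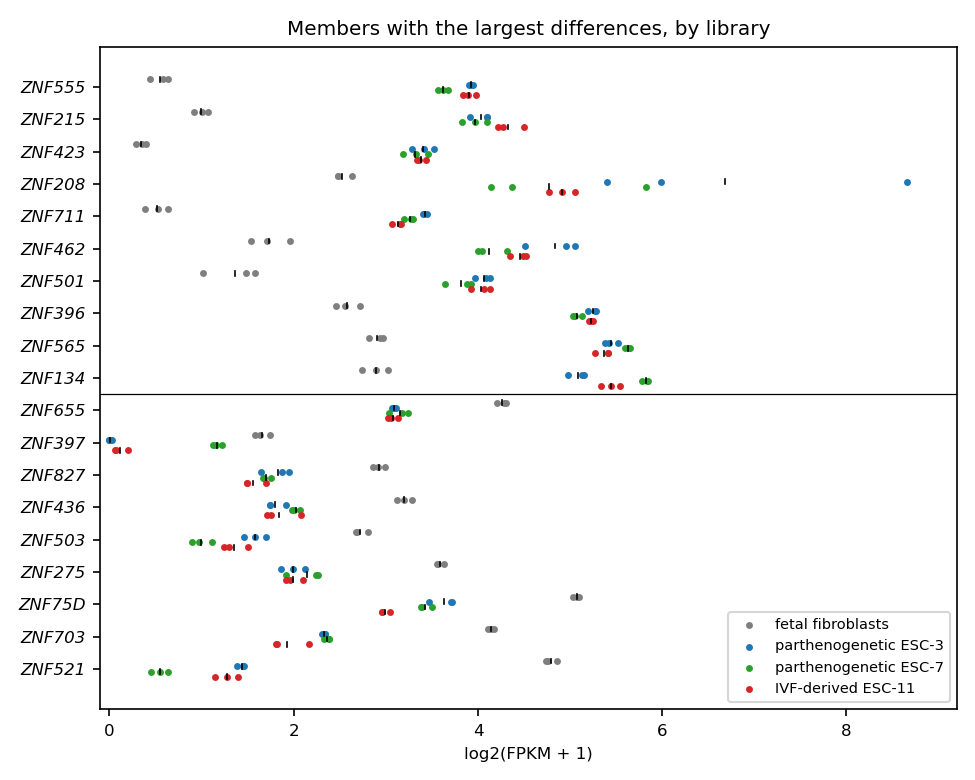
Level of the 10 members called higher (upper block) and the 9 called lower (lower block) with the largest differences, on the log2(FPKM + 1) scale (x axis). Each point is a library, coloured by group, and the short black line is the group mean of the values on this scale. Fibroblasts lie apart from all ESC libraries in every row because the rule took only members without overlap. ZNF208 and ZNF397 spread most among the ESC lines.

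The plot of the members with the largest differences by library shows, among those that rose, several with no established role. ZNF555 had the largest rise of all, from FPKM values of 0.555, 0.493 and 0.357 in fibroblasts to 10.9 to 14.8 in ESCs, a log2 difference of 3.27 ± 0.05 (SE, limma adjusted p = 6.26e-13). ZNF215, which in humans lies in the imprinted Beckwith-Wiedemann region, went from 1.10, 1.00 and 0.884 to 13.2 to 21.6. Its log2 difference was 3.11 ± 0.08 (SE, limma adjusted p = 2.6e-11). It was at 16.1, 14.0 and 16.2 in ESC3, 16.1, 13.2 and 14.7 in ESC7, and at 18.3, 21.6 and 17.6 in the line ESC11, so the IVF line was highest without a call between lines. ZNF501, ZNF396, ZNF565 and ZNF134 rose by 2.56 to 2.61, and their ESC means were 14.8, 35.4, 43.7 and 43.7 FPKM.

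ZNF208 needs its libraries read one by one. It was at 4.57, 4.56 and 5.18 in fibroblasts, 41.4, 62.6 and 402.9 in ESC3, 55.7, 19.6 and 16.6 in ESC7, with ESC11 at 32.2, 29.1 and 26.3. Every ESC library exceeded the fibroblasts, and 1 ESC3 library stood far above all others. The log2 difference of 2.93 ± 0.59 (SE, limma adjusted p = 0.000793) kept its call in all 22 alternatives tried, but the ESC mean of 76.3 ± 123 (SD, n = 9) rests on that library, and the median of the 9 was 32.2. The locus (chromosome 8, 44207853 to 44393518) is overlapped by 10 other loci of the table.

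The remaining members that fell were ZNF75D, ZNF275, ZNF436, ZNF827, ZNF397 and ZNF655. ZNF75D had the highest fibroblast level of them, at 31.8, 33.3 and 32.8 FPKM, and was at 6.76 to 12.1 in ESCs, a log2 difference of -1.72 ± 0.05 (SE, limma adjusted p = 1.89e-10). ZNF655, a KRAB protein described as a binding partner of the signalling protein VAV1, went from 18.8, 18.4 and 17.4 to 7.12 to 8.44, a difference of -1.16 ± 0.05 (SE, limma adjusted p = 1.4e-09). ZNF275 fell by 1.54 and ZNF436 by 1.31 on the log2 scale. When 5 in place of 1 was added to the FPKM before taking logs, ZNF521, ZNF703 and ZNF75D kept their calls and the other 6 lower members did not. ZNF75D and ZNF275 are on the X chromosome, as is ZNF711, which rose. All 9 fibroblast markers in the table fell as well, with POSTN and LUM at most 0.0566 in every ESC library, and the endothelial marker PECAM1 fell from 2.82 to 0.642. Their part in the fall of these genes was not tested.

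Among the partners of chromatin complexes, 11 genes were listed, 9 were in the table and 8 were tested, of which 2 rose, 1 fell and 5 were not called, with a median of 0.44. The 25% higher and 12.5% lower are near the 28.1% and 14.9% of all loci. ZNF687 and ZNF532, which share a complex with ZMYND8 at active chromatin, both rose. ZNF687 went from 10.0, 10.9 and 10.6 FPKM to 32.2 to 44.0, a log2 difference of 1.70 ± 0.05 (SE, limma adjusted p = 9.39e-11), and no library overlapped. ZNF532 rose by 1.20, but its call was lost after quantile normalization (0.95) and median-ratio scaling (0.77). ZNF827, which brings the NuRD complex to telomeres, fell from 6.56, 6.27 and 6.93 to 1.81 to 2.86, a difference of -1.23 ± 0.07 (SE, limma adjusted p = 3.18e-08).

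The general promoter and architectural factors differed little between the cell types. Of 8 listed genes 7 were tested, and limma called 0 of them, although 5 had an unadjusted p under 0.05, and the same 5 an adjusted one. ZNF143, a promoter and chromatin-loop factor, differed by 0.47, ZNF24 by 0.42 and ZNF384 by 0.15. ZNF410, which activates CHD4, differed by -0.02. The median of the list was 0.23, under the 0.44 of all loci.

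Of 17 RNA- and ribosome-associated genes, 16 were tested, of which 5 rose (31.2%, beside 28.1% of all loci) and 11 were not called, with a median of 0.75. ZNF385A, an RNA-binding protein that also partners p53, went from 2.41, 2.82 and 2.67 FPKM in fibroblasts to 14.5 to 17.1 in ESCs, a log2 difference of 2.21 ± 0.05 (SE, limma adjusted p = 8.96e-12). ZNF622, a maturation factor of the large ribosomal subunit, went from 19.6, 21.4 and 20.9 to 52.4 to 74.8, a difference of 1.58 ± 0.04 (SE, limma adjusted p = 1.4e-11). Both were clear of the fibroblasts in every ESC library. ZNF106 rose by 1.32, ZNF146 by 1.26 and ZNF598, a ubiquitin ligase that marks collided ribosomes, by 1.03. These 3 calls were lost after median-ratio scaling, at 0.88, 0.81 and 0.60. That of ZNF598 was also lost under quantile normalization and the same-sum scaling, at 0.78 and 0.87. The list was made by hand, and the place of ZNF146 on it was not checked.

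The KRAB repressors with a described role gave 5 rises among 13 tested of 18 listed (38.5%, beside 28.1% of all loci), 8 were not called, and the median was 0.56. After quantile normalization or median-ratio scaling 2 of these rises were left. ZNF354C went from 1.81, 1.47 and 1.26 FPKM to 5.67 to 8.58, a log2 difference of 1.71 ± 0.07 (SE, limma adjusted p = 1.28e-09). ZNF268 rose by 1.52, from 2.44 to 9.23, but it is one of 4 loci with that symbol. On chromosome 6, 2 of the others had means of 2.44 and 3.48 in fibroblasts and were lower in ESC3, at 1.51 and 2.19. They were higher in ESC7, at 5.64 and 4.24, and in ESC11, at 6.29 and 5.50. With the loci of the symbol summed the difference of ZNF268 was 0.92 and was not called. ZNF445, which keeps imprints together with ZFP57, rose by 1.18. ZNF202, a repressor of lipid genes, rose by 1.12 and ZNF263 by 1.01. The calls of these 3 were lost under quantile normalization (0.89, 0.83 and 0.66) and median-ratio scaling (0.78, 0.73 and 0.65), and that of ZNF263 also without fibroblast replicate 2 or ESC7 replicate 1. ZNF274, which brings SETDB1 to ZNF gene clusters, differed by 0.77 and was not called.

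The machinery that KRAB proteins work with was also followed, in a list of 24 genes of which 18 were in the table and 17 tested. Of these, 6 rose (35.3%, beside 28.1% of all loci) and 11 were not called, with a median of 0.72. The H3K9 methyltransferase gene EHMT2 rose by 2.01, HDAC2, a histone deacetylase, by 1.65, CBX1, a heterochromatin protein, by 1.17, CHD4 of the NuRD complex by 1.10 and ATF7IP, a partner of SETDB1, by 1.04. The sixth is ZNF445 (1.18), itself a member, whose call was lost under quantile normalization and median-ratio scaling. Values of the cofactors under those scalings are not given here, and CBX1, CHD4 and ATF7IP rose less than ZNF445. ATF7IP was not called in ESC3 alone (0.986). SETDB1, the methyltransferase that KRAB complexes recruit, differed by -0.02. ZFP57 stayed below the level for testing, and TRIM28 was not analysed here.

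**Figure D3:**
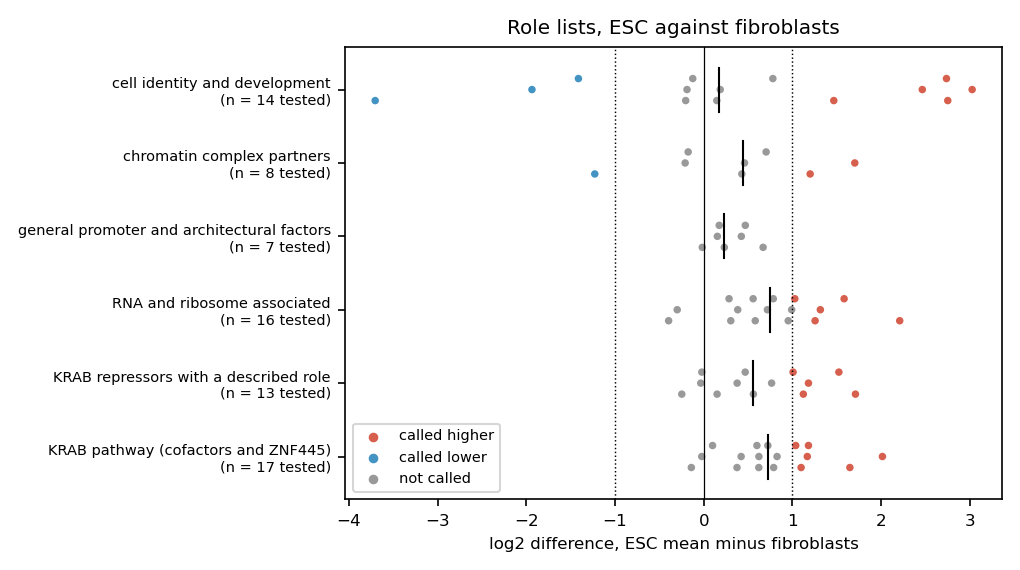
Log2 difference, ESC mean minus fibroblasts (x axis), for the tested genes of 5 lists of ZNF-named genes and of the KRAB pathway list. Each point is a gene, coloured by its call, the black line is the list's median, and dotted lines mark a difference of 1 in either direction. The genes called lower, 4 in all, are in the cell identity and chromatin partner lists.

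The plot of the role lists sets the wide spread of the cell identity genes, from -3.70 to 3.03, beside the narrow one of the promoter factors, from -0.02 to 0.67. The lists are hand-made and short, and the members' counts are descriptions.

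The most abundant members were ZNF677, ZNF784, ZNF207, ZNF277 and ZNF16. ZNF784 was at 966, 996 and 1017 FPKM in fibroblasts and 959 to 1862 in ESCs, and the groups overlapped, with a log2 difference of 0.51 that was not called. ZNF207, also called BuGZ, a spindle assembly and splicing protein, went from a mean of 286 ± 4.97 (SD, n = 3) to 431 ± 45.6 (SD, n = 9), a difference of 0.58 that was not called. ZNF16 rose by 1.06, a call lost under every scaling tried (0.61 to 0.89). ZNF277 was at 74.1, 83.8 and 144 in fibroblasts and 149 to 226 in ESCs, and its difference of 0.95 became 1.24 and was called without fibroblast replicate 3.

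ZNF677 had the highest level of all members and the widest scatter. Its FPKM was 873, 2394 and 1344 in fibroblasts, 7924, 4759 and 2131 in ESC3, 2991, 4067 and 3764 in ESC7, with ESC11 at 1883, 3796 and 1203. The cell types overlapped. Its difference of 1.16 ± 0.45 (SE, limma adjusted p = 0.0315) was not called without fibroblast replicate 1 (0.82), without fibroblast replicate 3 (1.13), after median-ratio scaling (0.71) or at the same summed FPKM (1.00). Another locus with this symbol was at means of 3.41 to 14.9 across the groups. ZNF784 likewise has another locus, at means of 4.86 to 6.22.

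Several values depend on the gene models. Of the 254 members, 86 were overlapped by another locus of the table, 68 of them by one on the opposite strand, and the use of strand in counting is not given in the sources used here, so reads of such pairs cannot be told apart. Among the members with the largest differences, ZNF555, ZNF208, ZNF462, ZNF501, ZNF565 and ZNF75D were overlapped on the opposite strand. Of the 77 called members, 31 were overlapped and 14 had several loci. ZNF185, a cytoskeletal LIM-domain protein and not a DNA-binding factor, shows what this can do. Its chosen locus on the X chromosome was listed at 0 in all fibroblast libraries and at 1.72 to 4.87 in ESCs and was called higher. A second locus under the same symbol, which overlaps its end, had means of 1.57 in fibroblasts, 1.51 in ESC3, 0.543 in ESC7 and 0.300 in ESC11. With both summed, the difference was 0.90 and was not called. ZNF185 was chosen for mention after its values were seen. A newer gene-name table gave the same symbol to 132 members, another to 4 and none to 118, and nothing was renamed here.

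The ZNF-named genes lay in groups along the genome (build Sscrofa10.2). When members whose starts were within 1 Mb were chained, 11 groups of at least 4 held 88 members, while 104 had no other member that close and 15 lay on unplaced scaffolds. Chromosome 6 carried 72 members, of which 66 were tested, 21 rose (31.8%, beside 28.1% of all loci) and 2 fell. After quantile normalization or median-ratio scaling 13 rose and 4 fell. The largest group (chromosome 6, 54509362 to 57743973) held 23 members, and of 22 tested 11 rose (50%) and 21 lay above 0 (95.5%), with a median of 0.89, beside 28.1% and 65.0% of all loci. Only 5 of the 22 were called higher after quantile normalization or median-ratio scaling (22.7%, beside 19.1% and 19.2% of all loci), and 7 at the same summed FPKM. ZNF134 rose there from 6.43 to 43.7 FPKM, ZNF667 from 3.01 to 15.1 and ZNF256 from 4.08 to 13.2. Neighbours with similar fingers can share reads, and the handling of multiply mapped reads is not given in the sources used here.

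Other groups on chromosome 6 had other values. In the second (40999383 to 42096625) 15 of 16 members were tested, 4 rose (26.7%) and the median was 0.77. ZNF565 and ZNF829 overlap there on opposite strands, and rose by 2.57 and 2.37. In the third (45620534 to 46863873) limma called 0 of 9 tested members, 5 had an unadjusted p under 0.05, and the median was -0.05, with ZNF575 at -0.84 and ZNF226 at 0.67. There 2 members were called lower after quantile normalization or median-ratio scaling. A small group at 111392810 to 111652200 held members that went opposite ways, ZNF396 (2.61) and ZNF271 (1.64) up, ZNF24 at 0.42, and ZNF397 down by 1.22. Elsewhere, 4 of 9 tested members rose in a group on chromosome 3 (17248290 to 18373958), with ZNF48 at 2.17 and ZNF189 at -0.54, but 1 of 9 after quantile normalization or median-ratio scaling. Differences between groups were not tested.

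**Figure D4:**
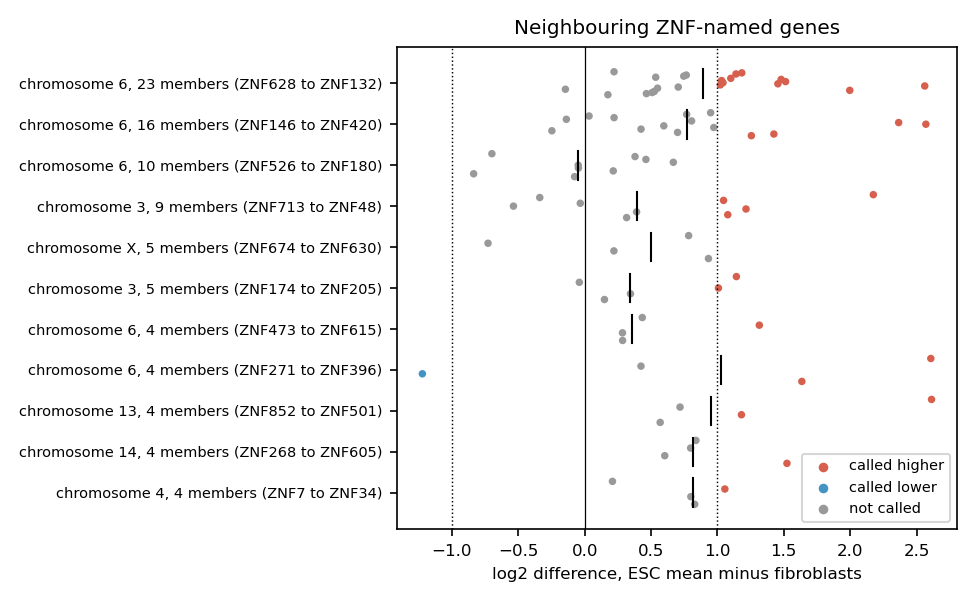
Log2 difference, ESC mean minus fibroblasts (x axis), of the tested members of the 11 groups of neighbouring ZNF-named genes, named by their first and last members. Each point is a gene, coloured by its call, the black line is the group's median, and dotted lines mark a difference of 1 in either direction. The largest group has a median of 0.89 and the third, with 10 members, one of -0.05.

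The plot of neighbouring genes shows that ZNF397 is the only member of these groups called lower in ESCs. Apart from that, members called higher lay beside members that were not called in the same group.

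Between ESC lines most ZNF-named genes differed little in size. Of the 233 tested, 203 had a log2 difference under 0.5 in every pair of lines, and 6 were called in any pair. The quartiles of ESC7 minus ESC3 were -0.20 and 0.15, beside -0.16 and 0.24 for all loci. Without the size limit, limma's adjusted p was under 0.05 for 92 members between ESC7 and ESC3. It was so for 62 between ESC3 and ESC11 and 66 between ESC7 and ESC11. Between ESC7 and ESC3, 4 members were called (1.72%), against 3.38% of all loci and 2.39% of annotated loci. Between ESC3 and ESC11, 2 were called (0.858%), against 2.48% and 1.2%, and between ESC7 and ESC11 also 2 (0.858%), against 2.94% and 1.49%. The comparison of ESC3 and ESC7 together with ESC11 sets the parthenogenetic lines against the only IVF line, so it cannot separate origin from line. It called 2 members (0.858%), against 2.2% of all loci and 0.971% of annotated loci. The members are annotated loci, and their shares are near those of annotated loci. These pairs share libraries, and all their calls were lost when 5 in place of 1 was added to the FPKM before taking logs.

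ZNF132 and ZNF397 were specific to a line, in the sense that ESC7 was called in the same direction against each of the other 2 lines with no overlap of libraries. ZNF132, a KRAB gene at the end of the largest group (chromosome 6, 57736056 to 57743973), had FPKM values of 2.54, 3.15 and 2.90 in ESC7, 0.836, 0.730 and 0.572 in ESC3, with ESC11 at 0.240, 0.238 and 0.192. Fibroblasts were at 0.911, 0.742 and 0.529, so ESC7 alone stood above 1. The log2 difference from ESC3 was 1.17 ± 0.09 (SE, limma adjusted p = 7.78e-06) and from ESC11 1.66 ± 0.09 (SE, limma adjusted p = 9.55e-07). It passed the filter only through its 3 ESC7 libraries and could not be tested when any of them was left out. It was also one of the 2 members called between parthenogenetic and IVF cells, at 1.07, but ESC3 alone differed from ESC11 by 0.48.

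ZNF397, a protein with a SCAN domain known from centromeres, was at 2.34, 1.99 and 2.09 FPKM in fibroblasts and at 1.17, 1.22 and 1.33 in ESC7. In ESC3 it was listed at 0, 0.0190 and 0, and in ESC11 it was at 0.0473, 0.0461 and 0.149. ESC7 thus lay between fibroblasts and the other lines, and 2 of 3 ESC3 libraries were listed at 0. ESC7 exceeded ESC3 by 1.16 ± 0.06 (SE, limma adjusted p = 4.39e-07) and ESC11 by 1.05 ± 0.06 (SE, limma adjusted p = 1.17e-06). After quantile normalization these were 0.90 and 0.83 and no longer called, and after median-ratio scaling the difference from ESC11 was 0.98. Against fibroblasts the differences were -1.64 in ESC3, -1.54 in ESC11 and -0.49 in ESC7, the last not called. Its neighbours ZNF271, ZNF24 and ZNF396 were not called between lines.

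The other 4 members called between lines were each called in 1 pair. ZNF175, a KRAB gene on chromosome 6 (51770943 to 51781988), was highest in the IVF line, at 12.8, 14.3 and 11.8 FPKM in ESC11, 3.29, 5.53 and 4.47 in ESC3, and 7.33, 5.86 and 5.48 in ESC7. Fibroblasts were at 5.65, 5.62 and 5.72, close to the parthenogenetic lines. ESC3 was lower than ESC11 by a log2 difference of -1.38 ± 0.14 (SE, limma adjusted p = 0.000108), and ESC7 by -0.96 ± 0.14 (SE, limma adjusted p = 0.000804), which is just under the size required. The ESC7 difference was called, and ZNF175 was then specific to ESC11, without ESC7 replicate 1 (-1.06), without ESC11 replicate 3 (-1.02), after quantile normalization (-1.07) and with 0.1 added before the log (-1.05). The mean of the parthenogenetic lines was lower by -1.17 ± 0.12 (SE, limma adjusted p = 0.000129).

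ZNF174, another SCAN-domain gene, was at 9.37, 9.97 and 9.08 FPKM in ESC7 and 3.82, 3.95 and 4.17 in ESC3, with ESC11 at 7.19, 7.86 and 8.93. ESC7 exceeded ESC3 by 1.07 ± 0.07 (SE, limma adjusted p = 1.97e-06), which became 0.99 and was not called after quantile normalization. ZNF470 was low in ESC3, at 0.394, 0.468 and 0.431, and at 1.36 to 1.89 in ESC7 and 1.87 to 2.07 in ESC11. Its fibroblast mean was 0.112, so it passed the filter only through the ESC7 and ESC11 libraries, where it is higher. ESC3 differed from ESC11 by -1.07 ± 0.08 (SE, limma adjusted p = 1.15e-05). In both genes ESC3 was the lowest of the 3 lines.

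ZNF706, a small protein known in mouse ESCs for promoting exit from self-renewal, was the reverse case, highest in ESC3. Its FPKM was 64.5, 72.7 and 48.8 in ESC3, 30.0, 24.6 and 30.4 in ESC7, with ESC11 at 33.2, 30.9 and 30.2, beside 41.0, 26.9 and 25.6 in fibroblasts. ESC7 was lower than ESC3 by -1.09 ± 0.18 (SE, limma adjusted p = 0.00104). The call was lost without ESC3 replicate 2 (-0.97) or ESC7 replicate 2 (-0.99). Without ESC3 replicate 3 the lines differed by -1.25, ESC3 also exceeded ESC11 by 1.10 with a call, and ZNF706 was then specific to ESC3.

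**Figure D5:**
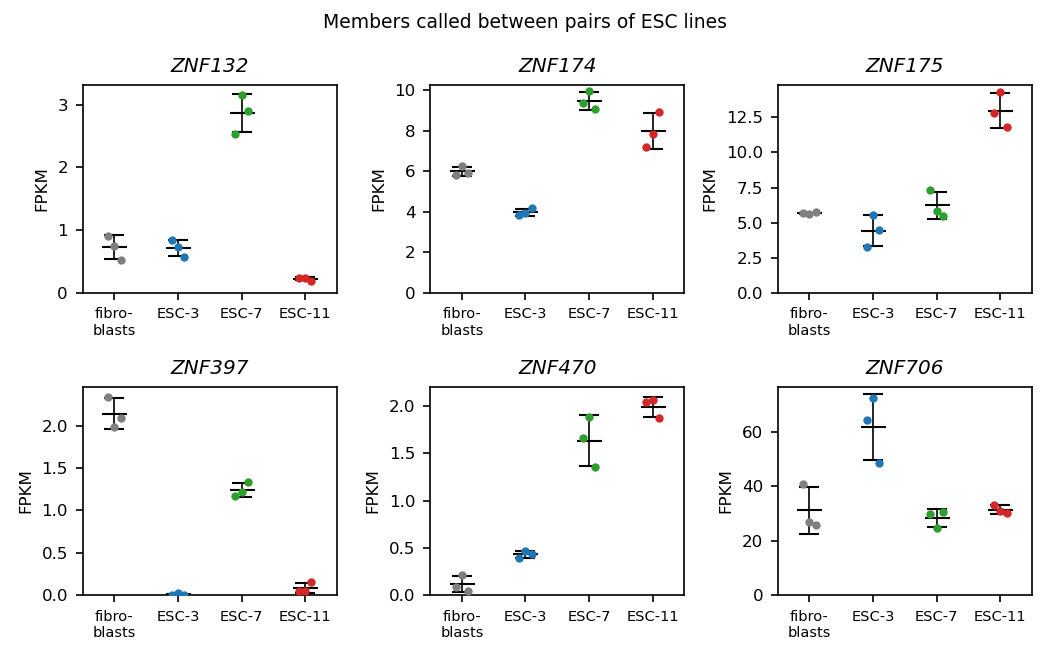
FPKM (y axis, linear from 0) of the 6 ZNF-named genes called between any pair of ESC lines, in fibroblasts and the 3 ESC lines. Each point is a library, the wide line is the group mean and the whiskers are 1 SD (n = 3). ESC7 is above the other lines for ZNF132 and ZNF397, ESC11 for ZNF175 and ESC3 for ZNF706.

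The plot of members called between lines shows that only ZNF397 had fibroblasts above every ESC library. ZNF208, with the widest spread among ESC libraries, was not called between lines: ESC7 differed from ESC3 by -1.91 ± 0.72 (SE, limma adjusted p = 0.0601). It was called at -2.55 without ESC3 replicate 1, when ESC3 also exceeded ESC11 by 2.41 with a call, and at -2.43 without ESC7 replicate 1. The neuronal marker TUBB3 also differed between lines, at a mean of 245 in ESC3, 44.7 in ESC7 and 139 in ESC11. Its part in these line differences was not tested.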

How the data were processed

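The authors deposited 1 table of FPKM values for 30012 loci in 12 polyA RNA-seq libraries, read as 100 bp paired ends per the labels' protocols. STAR 2.4.0b, Cufflinks 2.1.1 and Sscrofa10.2 are named in the submitters' processing notes without a role. Strand handling, multiply mapped reads and sequencing depth are not given in the sources used here. Coordinates are those of the table.

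Here FPKM values were used as log2(FPKM + 1), which understates changes of low genes, with no further scaling. The 18278 loci with an FPKM of 1 or more in 3 or more libraries were fitted in 1 group-means model of all 12 libraries with limma 3.58.1 (R 4.3.3), with variances moderated along the mean. Tests were two-sided, with Benjamini-Hochberg adjustment over all 18278 loci and a call needed an adjusted p under 0.05 together with a log2 difference of 1 or more in size. Errors are SD between libraries for FPKM and SE for log2 differences.

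The members, lists and tests were chosen with earlier results of these data known. The rule for named genes took up to 10 called members per direction whose higher side averaged an FPKM of 2 or more without overlap, every line-specific member, up to 6 called between parthenogenetic and IVF cells, up to 4 per role list, and the 5 most abundant. Other list and group members named with values were chosen after their values were seen. Genes in the table under another name, and 2 symbols left out of the rule, are not reported here. Protein and promoter sequences were not used here. Alternatives were other pseudocounts, filters, scalings and variance settings, a replicate term, summed loci and leaving out each library.

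No pairing of libraries by replicate number was seen. Same-numbered libraries of different groups had deviations with correlations of -0.090 to 0.087, beside -0.160 to 0.179 for other-numbered ones. Such weak correlations cannot show whether same-numbered libraries shared a day or batch. Within groups, libraries correlated at 0.980 to 0.985 across loci, which are not independent, and 0 pairs of libraries held identical values. Simulated data for the ESC and fibroblast comparison held 18278 loci. The model recovered 94% of 50 loci moved by 1.25 on the log2 scale and 96% of 50 moved by 1.5, with 3 false calls. The moved loci were drawn only from loci above a minimum mean level, and the simulated scatter was independent with no differences between lines. Tested members go down to a mean FPKM of 0.531, so the recovery does not cover the lowest of them.
Python 3.11.15 with pandas 2.3.3 and matplotlib 3.10.9 made the plots and, with numpy 2.4.6, the tables.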

Additional observations from a re-analysis of the deposited data

Results flagged for a closer look

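A difference between 2 ESC lines passed limma's test with a log2 difference of 1 or more in 8 cases among 6 ZNF-named genes. ESC7 differed from ESC3 by a log2 difference of 1.17 for ZNF132, 1.07 for ZNF174, 1.16 for ZNF397 and -1.09 for ZNF706. ESC7 differed from ESC11 by 1.66 for ZNF132 and 1.05 for ZNF397. ESC3 differed from ESC11 by -1.38 for ZNF175 and -1.07 for ZNF470. ZNF132 was tested only through the line in which it is high, and ZNF470 only through ESC7 and ESC11, where it is higher. Groups of 3 libraries were too small to look for single outlying libraries by a gap rule.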

How the results depend on the processing

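Each count was recomputed under 22 alternatives. With 0.1 added before the log, 15 members were called lower, the median difference was 0.72, and 4 members were called between parthenogenetic and IVF cells, 9 between ESC7 and ESC3 and 4 between ESC7 and ESC11, with 5 line-specific. With 5 added, 30 were higher, 3 lower and the median was 0.32, and limma called 0 in each comparison between lines and 0 line-specific members, although 81, 118, 91 and 95 members had an unadjusted p under 0.05 in the 4 comparisons (parthenogenetic against IVF, ESC7 against ESC3, ESC3 against ESC11, ESC7 against ESC11). With an FPKM of 5 or more required, 166 members were tested, the median was 0.74, and the same 4 comparisons gave 1, 2, 1 and 0 calls (68 at an unadjusted p under 0.05 in the last) and 0 line-specific members, since fewer genes were tested. Quantile normalization gave 42 higher, 16 lower and a median of 0.22. Median-ratio scaling gave 39 higher, 14 lower, a median of 0.22, 1 call between ESC7 and ESC11 and 1 line-specific member. The same summed FPKM gave a median of 0.43. Summing the loci of a symbol gave 7 calls between ESC7 and ESC3 and 4 line-specific members, which added ZNF268 (low in ESC3) and ZNF521 (low in ESC7). The cause of these moves was not tested unless stated. The difference between ESCs and fibroblasts, not called in either case, reversed for ZNF132 (-0.31 after quantile normalization) and ZNF175 (-0.0084 after quantile normalization, -0.11 after median-ratio scaling).

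Leaving out each library in turn gave 65 to 69 members higher, 9 lower, a median of 0.55 to 0.58, 1 to 2 calls between parthenogenetic and IVF cells, 2 to 5 between ESC7 and ESC3, 2 to 3 between ESC3 and ESC11, 1 to 3 between ESC7 and ESC11, and 1 to 3 line-specific members. The smallest count of members higher came without FB replicate 2. Without an ESC7 library ZNF132 could not be tested, and several counts between lines fell. There was 1 call between parthenogenetic and IVF cells when any of the 3 was left out, and 2 between ESC7 and ESC3 without ESC7 replicate 2. Without ESC7 replicate 2 or 3 there was 1 call between ESC7 and ESC11 and 1 line-specific member. Without ESC7 replicate 1, ESC7 against ESC3 instead gave 3 higher and 2 lower, more than the 4 calls with all libraries. The replicate block left the counts at 68 higher, 9 lower, 2, 4, 2 and 2 between lines and 2 line-specific, and changed no named call. No pairing by replicate number was seen: 0 of 18 same-number pairs correlated over 0.1, beside 5 of 36 other-number pairs. Of 12 libraries, 0 correlated best with their own number in every group. Without depth, the precision of low values, such as those of ZNF397, is unknown.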
